A study of Mus musculus with 36 samples.

Results

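Freely fed mice gave the libraries compared here, from liver and from the subcutaneous fat pad of the groin, the inguinal white adipose tissue (iWAT). All libraries of both tissues from the ad libitum (AL) group were taken, which are 12 of the 36 libraries of the study: 6 of iWAT and 6 of liver. The animals were C57BL/6J mice kept on their feeding regimen for 16 weeks. The AL libraries came from 7 mice, of which 5 gave both tissues, 1 gave iWAT only and 1 gave liver only. The study's other groups were calorie-restricted (CR) mice and mice fed within a limited time without calorie restriction (TR), each with 6 libraries per tissue. They enter here as the partners of the AL group in the deposited comparisons, CR against AL and TR against AL within each tissue. No allele, transgene or drug is named for any group, and the labels state neither sex nor age.

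The liver makes most of the proteins of blood plasma, builds bile acids, disposes of ammonia as urea, supplies glucose and ketone bodies to other organs, and takes up and modifies foreign compounds. White adipose tissue stores triglyceride in large lipid droplets, releases fatty acids on adrenergic signals, and secretes hormones such as leptin and adiponectin. Its adipocytes lie among progenitor cells, vessels, nerves, immune cells and a fibrous matrix, and the inguinal pad of the mouse also encloses a lymph node.

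The deposited tables give, for each gene and each pair of groups, a fitted log2 fold change and a log2 mean level in CPM, a read count scaled to the size of its library. The AL level was solved from these values, and the estimates from the CR table and the TR table of a tissue were averaged where both list the gene. Of the 12300 genes listed in both tissues, 194 have an iWAT level from 1 table, 170 of them from the TR table, and 196 have a liver level from 1 table. Where there was a pair of estimates, they differed by a median of -0.0085 log2 units in liver and 0.0175 in iWAT, and at most by 0.216 and 0.319. Values per library are not in these tables, so levels are given per group of 6, with an approximate standard error (SE) that comes from the deposited fold change and likelihood-ratio statistic. It comes from fits of the AL mice together with the CR or TR mice and includes counting error, so it is not the spread among the AL mice alone. It does not cover the scaling between the tissues, which were normalized apart, and nothing in the labels describes the replicates beyond separate animals. The depth of the libraries is unknown. Differences are written as log2 iWAT level minus log2 liver level, with the approximate SE of the difference, so that a positive value means a higher level in iWAT. Each comparison between the tissues is a description without a test. In bulk tissue, fewer cells of a type and less RNA per cell cannot be told apart.

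Liver and iWAT differed widely in the genes that took up their RNA. In liver, Alb (albumin, the main protein of plasma) alone held 7.72% of the summed AL level, the 10 highest genes held 18.0%, and 143 genes held 50%. In iWAT the highest gene, the mitochondrial mt-Co1 (a subunit of cytochrome oxidase), held 2.36%, the 10 highest held 11.5%, and 633 genes were needed to reach 50%. Per kilobase of transcript, the scale on which genes can be compared with each other, the leading nuclear genes of liver were Alb at 36876 CPM per kb, Apoa2 (an apolipoprotein of high-density lipoprotein) at 10584, Trf (transferrin, the iron carrier of plasma) at 6161 and Apoe at 5965. The leading nuclear genes of iWAT on the same scale were Fabp4 (the fatty acid binding protein of adipocytes) at 11786 CPM per kb, Car3 (carbonic anhydrase 3) at 6097, Cfd (adipsin, complement factor D) at 6056 and Gsn (gelsolin, which severs actin filaments) at 4871. mt-Co1 was near the top in both, with 17943 CPM per kb in liver and 13746 in iWAT.

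Of the 16021 genes in the tables, 12300 were listed in both tissues, 486 in liver tables only and 3235 in iWAT tables only. Among the 12300 shared genes, 2217 (18.0%) were at least 4-fold higher in iWAT and 886 (7.20%) at least 4-fold higher in liver, and 9197 lay between. The median difference was 0.74 log2 units toward iWAT, with quartiles of 0.03 and 1.55. Measured from that median, 1413 genes were at least 4-fold higher in iWAT and 1222 in liver, so the balance of the counts depends on the scaling. The median approximate SE of a difference was 0.252 log2 units, and 3102 of the 3103 genes that were 4-fold apart differed by more than 2 approximate SEs. The scatter of the levels shows a broad cloud around the median line, a tail of adipocyte and matrix genes above it, and a narrow band of liver genes that runs parallel to it far below.

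**Figure D1:**
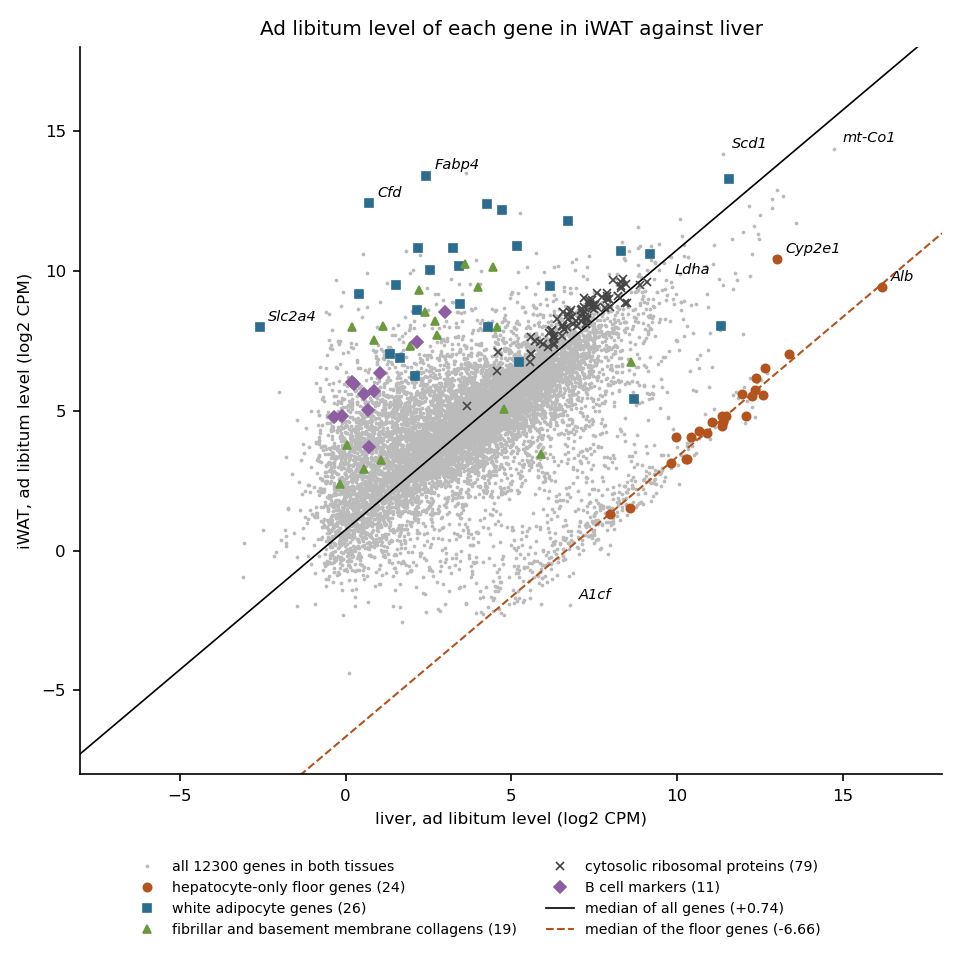
AL level of each of the 12300 genes listed in both tissues, in log2 CPM, with liver on the horizontal and iWAT on the vertical axis. Grey points are all genes and coloured symbols are members of 5 lists. The solid line is the median difference of all genes (0.74) and the dashed line the median of 24 hepatocyte genes (-6.66), along which the liver genes form a band.

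The 3 largest differences toward iWAT belonged to genes known from adipocytes. Cfd (chromosome 10, 79890853-79892655, GRCm38) stood at 1.65 CPM in liver and 5471 CPM in iWAT, a difference of 11.70 ± 0.60 log2 units. Fabp4 (chromosome 3, 10204088-10208576) stood at 5.38 CPM in liver and 10807 CPM in iWAT, a difference of 10.97 ± 0.34. Slc2a4, the insulin-regulated glucose transporter GLUT4, stood at 0.166 CPM in liver and 252 CPM in iWAT (10.57 ± 0.42). These 3 genes were low in liver and well expressed in fat. Other genes with a large difference were Ifi27l2a (an interferon-induced gene; 10.09 ± 0.37), Gsn (9.86 ± 0.33), Pnpla3 (a lipid droplet acyl hydrolase; 9.32 ± 0.32), Emp1 (9.27 ± 0.34), Ntrk2 (a neurotrophin receptor; 9.12 ± 0.38), Synpo2 (8.95 ± 0.47), Htra3 (8.89 ± 0.38), Slc1a5 (a glutamine carrier; 8.87 ± 0.28), Mest (an imprinted gene linked to fat cell enlargement; 8.76 ± 0.45), Cav1 (the main protein of caveolae; 8.65 ± 0.30) and Ehd2 (a caveolar ATPase; 8.33 ± 0.28).

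Some of these gaps had another size in the other feeding groups, whose deposited comparisons share the AL mice. For Mest, the same difference between tissues was 4.74 log2 units in the CR mice and 4.51 in the TR mice, against 8.76 in the AL mice. Its log2 fold change in iWAT in the authors' deposited tables was -3.86 for CR against AL (FDR 1.01e-12) and -4.33 for TR against AL (FDR 1.09e-09). Pnpla3 differed by 5.24 in CR mice and 5.40 in TR mice, against 9.32 in AL mice, and here it was the liver level that differed between diets. The authors' deposited tables give Pnpla3 in liver a log2 fold change of 4.76 for CR (FDR 1.08e-55) and 4.61 for TR (FDR 5.73e-39). Cfd was further apart in the other groups, with tissue differences of 13.40 in CR and 14.17 in TR mice. Its low AL level in liver had an SE of 0.51 log2 units.

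The largest differences toward liver belonged to genes of hepatocytes, the parenchymal cells of liver. A1cf, a cofactor of apolipoprotein B mRNA editing (chromosome 19, 31868764-31948995), stood at 110.1 CPM in liver and 0.257 CPM in iWAT (-8.74 ± 1.07 log2 units). Cyp7a1, whose enzyme limits the rate of bile acid synthesis, stood at 244 CPM in liver and 0.926 CPM in iWAT (-8.04 ± 1.27). Apob, the scaffold protein of very-low-density lipoprotein, stood at 5224 CPM in liver and 27.2 CPM in iWAT (-7.59 ± 1.00). Sult1d1 (a sulfotransferase; -7.81 ± 1.32), Slco1b2 (an organic anion importer; -7.69 ± 1.12), Serpina7 (thyroxine-binding globulin; -7.66 ± 1.29), Akr1d1 (a steroid reductase of bile acid synthesis; -7.64 ± 1.05), Anks4b (-7.63 ± 1.29) and Slco1a1 (another organic anion importer; -7.62 ± 1.28) completed the leading group. They were followed by Pzp (a protease inhibitor of plasma; -7.51 ± 1.03), Abcc2 (a canalicular exporter; -7.46 ± 0.72), Cyp3a25 (-7.34 ± 1.13), Mug2 (-7.33 ± 1.18), Slc2a2 (the glucose transporter GLUT2; -7.31 ± 1.16) and Sult2a8 (-7.30 ± 1.07). These SEs are mostly near 1 log2 unit, several times those of most genes named above as far higher in iWAT. Nearly all of the error comes from the iWAT side: for A1cf the SE was 0.12 in liver and 1.06 in iWAT. For 7 of these 15 genes, A1cf, Cyp7a1, Sult1d1, Serpina7, Anks4b, Slco1a1 and Slc2a2, iWAT was listed in the TR table alone, so their AL level there rests on 1 estimate. That table gives them log2 fold changes for TR against AL of 2.07 to 3.45, none past an FDR of 0.05. Among genes with both iWAT tables the largest differences toward liver were those of Slco1b2, Akr1d1, Apob, Pzp and Abcc2.

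The genes listed in only 1 tissue follow the same division. The 10 highest of the iWAT tables alone were Adipoq (adiponectin; 2880.4 CPM), Lep (leptin; 2429.7), Aoc3 (an amine oxidase; 1447), Plin1 (the perilipin that coats adipocyte droplets; 1107), Nnat (neuronatin; 1026), Retn (resistin; 882), Sncg (gamma-synuclein; 834), Myh4 (a fast skeletal myosin; 833), Trarg1 (a regulator of GLUT4 traffic; 749) and Apol6 (690.3), all in CPM. The 10 highest of the liver tables alone were Mup15 (338 CPM), Mup17, Mup18, Mup1, Mup16, Acnat1, Slc10a5, Cyp4a31, Slc10a2 and Mup12. The Mup genes encode major urinary proteins and lie in a cluster of near-identical copies on chromosome 4, so that reads can be split between them and their separate levels are uncertain. Most genes listed in a single tissue were low: 484 of the 3235 iWAT genes and 49 of the 486 liver genes reached 10 CPM.

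Alb, G6pc and Lep stand for the liver-restricted and fat-restricted ends of the comparison, and their promoters are shown because the genes at those ends differed in the short motifs that their promoters hold. Alb (chromosome 5, 90460897-90476602, GRCm38) stood at 74798 CPM in liver and 678 CPM in iWAT (-6.79 ± 0.71 log2 units). G6pc, the glucose-6-phosphatase that lets liver release glucose, stood at 73.9 CPM in liver and 0.724 CPM in iWAT. Lep (chromosome 6, 29060220-29073877) was listed in iWAT only, at 2429.7 CPM. The 250 bases before each start site are given 5′ to 3′ on the plus strand from RefSeq (GRCm38.p6), for Alb at chr5:90460620-90460869, for G6pc at chr11:101367466-101367715 and for Lep at chr6:29059971-29060220. Capitals mark matches to the HNF1, FOXA and C/EBP motifs spelled out in the next paragraph.
Alb: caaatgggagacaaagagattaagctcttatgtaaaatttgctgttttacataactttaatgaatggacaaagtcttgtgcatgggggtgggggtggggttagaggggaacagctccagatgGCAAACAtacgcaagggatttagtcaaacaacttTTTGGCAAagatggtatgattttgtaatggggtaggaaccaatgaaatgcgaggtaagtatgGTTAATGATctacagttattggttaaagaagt
G6pc: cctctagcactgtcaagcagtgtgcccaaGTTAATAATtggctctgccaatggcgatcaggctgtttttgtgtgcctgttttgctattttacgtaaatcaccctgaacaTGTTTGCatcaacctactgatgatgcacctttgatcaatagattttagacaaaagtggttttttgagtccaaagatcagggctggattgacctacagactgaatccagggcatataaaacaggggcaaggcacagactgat
Lep: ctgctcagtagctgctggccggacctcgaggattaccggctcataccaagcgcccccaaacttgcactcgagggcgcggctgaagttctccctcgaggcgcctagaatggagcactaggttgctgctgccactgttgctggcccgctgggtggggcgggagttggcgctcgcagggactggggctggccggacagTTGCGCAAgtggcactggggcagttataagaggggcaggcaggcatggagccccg
The Alb stretch holds an HNF1 match, GTTAATGAT, that begins at -32 from the RefSeq start site, a FOXA match, GCAAACA on the printed strand, at -128, and a C/EBP match, TTTGGCAA, at -94. This stretch ends at 90460869, short of the gene start at 90460897 given above. Counted from that gene start, the matches would lie further upstream. The G6pc stretch holds an HNF1 match, GTTAATAAT, at -221, a FOXA match, TGTTTGC, at -141, and a TATA box that begins at -29. Its HNF1 match overlaps a CCAAT box match, ATTGGC, at -214. The Lep stretch holds a C/EBP match, TTGCGCAA, at -55 and a GC box at -98.

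Promoters of 300 bases (250 before to 50 after the start site) were found for 27025 genes, and a gene was counted when any promoter of it held the motif on either strand. HNF1, HNF4, FOXA and C/EBP are families of transcription factors that act in hepatocytes, and C/EBP factors act in adipocytes too. The HNF1 motif GTTAATNAT was in 0.940% of all genes with a promoter, in 4.92% of 651 genes at least 4-fold higher in liver and in 0.186% of 1613 genes at least 4-fold higher in iWAT. The 32 liver genes with it include Alb, Fga (a fibrinogen chain), G6pc, Gc (vitamin D binding protein), Ugt1a1 (which conjugates bilirubin), Hc (complement C5), F13b, Afm, C4bp, Cp (ceruloplasmin), Pzp, Slco1b2 and Sult1d1. The HNF4 motif CAAAGTCCA was in 0.555% of all, 2.77% of liver and 0.434% of iWAT genes. The FOXA motif TGTTTGC was in 5.76%, 8.91% and 4.84%, and the C/EBP motif TTGCNNAA in 12.2%, 17.2% and 11.0%, in the same order. Genes at least 4-fold higher in liver thus held each of these 4 motifs in a larger share than all promoters did. Genes at least 4-fold higher in iWAT held each in a smaller share, but this was not particular to them. The 5515 genes within 1 log2 unit of the median difference held HNF1 in 0.218%, HNF4 in 0.453%, FOXA in 4.48% and C/EBP in 9.36%. Genes listed in 1 tissue only did not follow the order of the 4-fold groups for every motif. The 204 with a promoter from the liver tables alone held HNF1 in 3.92%, HNF4 in 2.45% and C/EBP in 14.2%, but FOXA in 4.41%, below all promoters. The 1776 from the iWAT tables alone, such as Lep, held HNF1 in 0.394% and FOXA in 4.84%, but HNF4 in 0.619% and C/EBP in 12.6%, slightly above all promoters.

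The GC box GGGCGG, a motif of GC-rich promoters, gave another order. It was in 38.2% of all genes, 43.6% of liver genes, 68.4% of iWAT genes and 70.3% of 5515 genes within 1 log2 unit of the median difference. In the 265 liver genes whose iWAT level lay near or under the hepatocyte floor described below, the GC box was in 19.6%, the TATA box TATAAA in 26.0% (15.7% of all genes), HNF1 in 8.30%, HNF4 in 4.91%, FOXA in 14.7% and C/EBP in 23.8%. This group had the lowest share of GC boxes and the highest share of each of the other 5 motifs. The genes of the liver tables alone were not like it, with the GC box in 34.8% and the TATA box in 17.2%. The part of base composition in these shares was not tested. A further 13 motifs were searched. They were a longer TATA box, TATAAAA, in 6.39% of all genes with a promoter, a second FOXA form, TGTTTAC, in 4.05%, a C/EBP palindrome, TTGCGCAA, in 0.207%, an NF1 half-site, CCAAAT, in 13.2%, a CCAAT box, GCCAAT, in 16.7%, and 8 longer ones. The longer ones were HNF1 in 3 extended forms (0.470%, 0.155% and 0.0111%), a nuclear receptor direct repeat in a strict (0.0481%) and a loose form (3.38%), the serum response factor box in a strict (0.0555%) and a loose form (75.1%), and an EBF motif (1.06%). Several of these motifs contain one another, and the 6 described above were chosen with shares in view. So was the EBF motif, which was in 1.08% of liver genes, 2.17% of iWAT genes and 0.997% of genes near the median. The near-floor liver genes held EBF in 0.755%, and genes of the iWAT tables alone in 1.46%. A match is a run of letters in a window and not a site of binding.

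**Figure D2:**
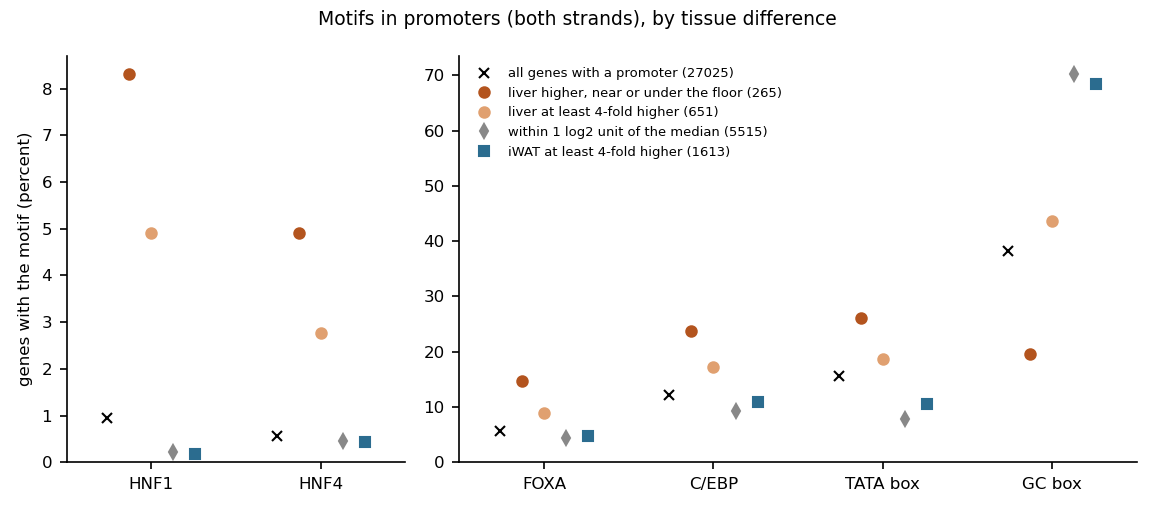
Share of genes, in percent, whose 300-base promoter holds each of 6 motifs on either strand, for all genes with a promoter and for 4 groups of genes by tissue difference. Both groups of genes higher in liver lie above all promoters for HNF1, HNF4, FOXA, C/EBP and the TATA box. For the GC box the near-floor liver genes are lowest, at 19.6%.

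The tissue labels were read against markers. White adipocyte genes were high in iWAT and mostly low in liver, with a median difference of 5.69 log2 units over 26 genes and 11 more listed in iWAT only. Hepatocyte genes were high in liver, and they were also detected in iWAT. A set of 24 genes that hepatocytes are known for, from Alb and Cps1 to Cyp3a11, stood in AL iWAT at a median of 0.991% of their liver level. Of these, 23 lay in a narrow range from 0.640% (Cps1) to 1.67% (Apoc3), and Cyp2e1 lay apart at 16.5%. Alb, for example, was at 74798 CPM in liver and 678 CPM in iWAT, which is 0.906%. For these 24 genes the median SE of the log2 iWAT level was 0.965, against 0.120 in liver.

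This near-constant share differed between diets. In CR iWAT the median of the 24 genes was 0.0594% of the CR liver level and in TR iWAT it was 4.03% of the TR liver level. In the authors' deposited tables, 19 of the 24 passed an FDR of 0.05 as lower in CR than in AL iWAT (3.78% of all genes), and 1, Cyp2e1, as higher in TR than in AL iWAT (4.76% of all genes). With genes grouped by tissue difference, the largest median diet differences in iWAT were those of genes far higher in liver. The 53 genes at least 7 log2 units higher in liver had a median deposited log2 fold change in iWAT of -3.62 for CR and 2.39 for TR with a median SE of 1.06, and the 252 genes between 6 and 7 units had -3.37, 1.91 and 0.99. The 4341 genes between 0 and 1 unit toward iWAT had medians of 0.08 and 0.02 with a median SE of 0.21. On the iWAT side the medians for CR and TR had the same sign, at -0.39 and -0.50 for 133 genes between 5 and 6 units and -0.55 and -0.55 for 105 genes above 6. The AL iWAT level enters both the tissue difference and the diet difference, so they are not independent. Of the 346 genes near or under the floor described below, 129 were listed in iWAT in the TR table alone. None was listed there in the CR table alone. The CR medians leave such genes out. A gene kept only beside the TR libraries can be one that is higher there, so the TR medians may in part be built in. Whether the transcripts of these hepatocyte genes were made in iWAT or came with liver RNA was not tested.

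The share therefore sets a floor for reading low iWAT levels. At or under the median share of 0.991% lay 135 genes, and 346 of the 886 genes that were 4-fold higher in liver (39.1%) lay within 2-fold of it or under it. The other 540 lay more than 2-fold above it. The AL level of the 346 genes alone does not separate RNA made in iWAT from the share common to hepatocyte genes. In the CR mice, where 217 of them had an iWAT level, 121 lay within 2-fold of the lower CR share or under it, and 96 lay more than 2-fold above, 15 of these more than 16-fold. Picked with their values in view, Acox2 (a peroxisomal oxidase of bile acid synthesis) differed between tissues by -6.89 log2 units in AL and -6.18 in CR mice, Bdh1 (a ketone body dehydrogenase) by -5.91 and -5.56, and the receptor Fgfr4 by -5.81 and -5.50. Alb went from -6.79 to -9.26. The remaining 129 had no CR level in iWAT. In the TR mice, 345 of the 346 lay within 2-fold of the higher TR share or under it. The 346 include the 129, which were listed in iWAT in the TR table alone and may owe this to a higher TR level. The AL floor is an estimate on this scale only: with AL levels taken from a geometric mean of the groups in place of an arithmetic one, the median share was 1.70%.

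**Figure D3:**
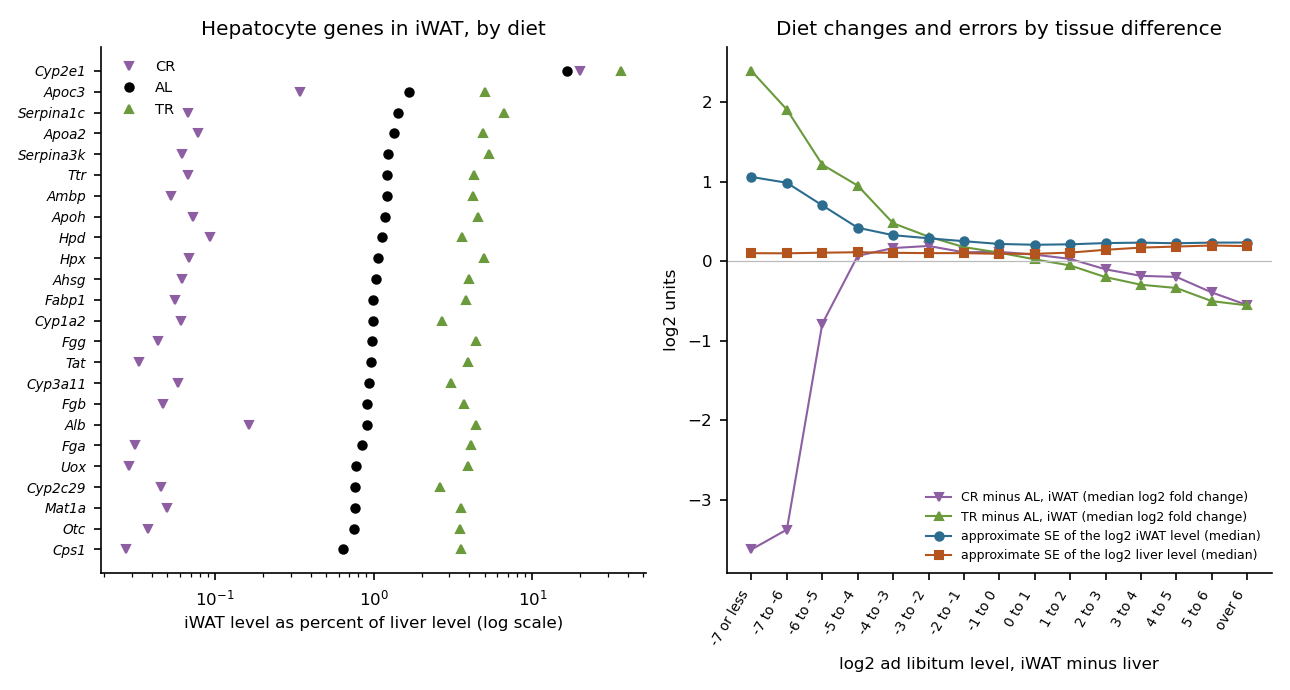
Left, iWAT level as a percentage of the liver level for 24 hepatocyte genes in AL, CR and TR mice, on a log axis. Right, medians over all genes in bins of the AL tissue difference (horizontal, log2 units): deposited log2 fold changes of CR and TR against AL in iWAT, and approximate SEs of the AL levels. Apart from Cyp2e1, the AL points sit near 1%, the CR points mostly near 0.06% and the TR points near 4%, and the median SE in iWAT is large only where genes are far higher in liver.

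Most plasma protein genes were far higher in liver. Of 31 listed in both tissues, 27 were at least 4-fold higher in liver (7.20% of all genes) and the median difference was -6.41, against 0.74 for all genes. The list held 17.3% of the summed liver level and 0.863% of that of iWAT. Of the 27, 24 lay within 2-fold of the hepatocyte floor or under it. The fibrinogen chains illustrate this: Fga stood at 2603 CPM in liver and 21.9 CPM in iWAT, Fgb at 2663 CPM in liver and 24.3 CPM in iWAT and Fgg at 1908 CPM in liver and 18.6 CPM in iWAT. Against them stood a few members with clear iWAT levels. Rbp4, the retinol carrier of plasma, was at 2569.5 CPM in liver and 261 CPM in iWAT (-3.30 ± 0.27 log2 units), Cp at 1017 CPM in liver and 179 CPM in iWAT (-2.50 ± 0.25), Trf at 12265 CPM in liver and 3357 CPM in iWAT (-1.87 ± 0.31) and Vtn (vitronectin) at 1531 CPM in liver and 51.5 CPM in iWAT (-4.89 ± 0.39). Hp, haptoglobin, which binds free haemoglobin, was nearly level, at 2202 CPM in liver and 1943 CPM in iWAT (-0.18 ± 0.32), as was Serpinf1 at 417 CPM in liver and 325 CPM in iWAT (-0.36 ± 0.29).

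The clotting and complement systems were divided between the tissues by role. Of 21 coagulation genes in both, 14 were 4-fold higher in liver and 5 in iWAT (median -6.09). The zymogens and their inhibitors were on the liver side, from F11 (-7.25 ± 1.44 log2 units, listed near the floor in iWAT) and F9 (-7.25 ± 1.14) to prothrombin, F2, at 1323 CPM in liver and 14.7 CPM in iWAT (-6.50 ± 0.89). The genes on the iWAT side act at the vessel wall. They include Thbd (thrombomodulin; 3.49 CPM in liver and 218 CPM in iWAT, 5.97 ± 0.30), Vwf (von Willebrand factor; 3.91 ± 0.24), F3 (tissue factor; 3.89 ± 0.26) and Tfpi (its inhibitor; 2.26 ± 0.28). Plat and F13a1 were listed in iWAT only. The 5 of 21 on the iWAT side are 23.8%, against 18.0% of all genes, and the 14 on the liver side 66.7%, against 7.20%.

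For complement, 14 of 28 genes were 4-fold higher in liver and 7 in iWAT (median -1.83). The iWAT share was 25.0%, against 18.0% of all genes. The terminal components C8a (-7.18 ± 1.07 log2 units), Hc (-7.13 ± 0.77) and C9 (-7.06 ± 1.14) and the lectin pathway genes Masp2 (-7.09 ± 0.73) and Mbl2 (-6.40 ± 1.16) were near the floor in iWAT. The central C3 was clearly present in both, at 7733 CPM in liver and 1458 CPM in iWAT (-2.41 ± 0.26). The early classical genes C1ra (-0.51 ± 0.21), C1s1 (-0.14 ± 0.23) and the inhibitor Serping1 (-0.15 ± 0.28) were close to level, and C4b was at 877 CPM in liver and 1494 CPM in iWAT (0.77 ± 0.27). On the iWAT side lay the C1q chains of macrophages, such as C1qa (2.45 ± 0.28), properdin Cfp (2.66 ± 0.26), C7 (1.28 CPM in liver and 113 CPM in iWAT, 6.47 ± 0.42) and Cfd. Cfd cleaves factor B in the alternative pathway, and its substrate Cfb was at 1119.9 CPM in liver and 473 CPM in iWAT (-1.24 ± 0.25).

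Lipoprotein genes were mostly on the liver side. Of 28 listed in both, 16 were 4-fold higher in liver and 6 in iWAT (median -5.08). The liver share was 57.1%, against 7.20% of all genes, and the iWAT share was 21.4%, near the 18.0% of all genes. Those that build particles were on the liver side: Apob, Apoa1 (4188 CPM in liver and 57.9 CPM in iWAT, -6.18 ± 0.92 log2 units), Mttp (the transfer protein that loads Apob with lipid; 373 CPM in liver and 10.5 CPM in iWAT, -5.16 ± 0.32) and Lcat (which esterifies cholesterol on lipoproteins; -6.10 ± 0.62). Those that act on particles at the vessel wall lay on both sides. Hepatic lipase, Lipc, was at 108 CPM in liver and 1.15 CPM in iWAT (-6.56 ± 0.82). Lpl, lipoprotein lipase, stood at 19.3 CPM in liver and 5352 CPM in iWAT (8.12 ± 0.31), its endothelial anchor Gpihbp1 at 17.0 CPM in liver and 172 CPM in iWAT (3.33 ± 0.23) and Vldlr at 8.49 CPM in liver and 95.2 CPM in iWAT (3.49 ± 0.29). Apoe was high in both, at 5739 CPM in liver and 2243 CPM in iWAT (-1.36 ± 0.30), and the receptors Scarb1 (0.05 ± 0.22) and Abca1 (-0.14 ± 0.24) were level within their errors.

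Nearly all genes of bile acid synthesis and transport were far higher in liver (median -6.64, about that of the 24 hepatocyte genes). At least 4-fold higher were 20 of 21 (95.2%, against 7.20% of all genes). Besides Cyp7a1, these included Abcb11, the bile salt export pump (376 CPM in liver and 2.93 CPM in iWAT), and Slc10a1, the sodium-dependent bile acid importer (594 CPM in liver and 5.31 CPM in iWAT, -6.81 ± 1.01 log2 units). Members with a further role in sterol or lipid transport kept measurable iWAT levels, such as Cyp27a1 (a sterol 27-hydroxylase; 459.8 CPM in liver and 61.1 CPM in iWAT, -2.91 ± 0.22) and Scp2 (3566 CPM in liver and 817 CPM in iWAT, -2.12 ± 0.24). Of the urea cycle and amino acid catabolism, 32 of 36 genes were 4-fold higher in liver (88.9%, against 7.20% of all genes). The median was -6.12. Cps1, the entry enzyme of the urea cycle, stood at 4347 CPM in liver and 27.8 CPM in iWAT (-7.29 ± 1.04). The later urea cycle gene Asl was less far apart, at 564 CPM in liver and 25.7 CPM in iWAT (-4.46 ± 0.33), and Gstz1, a late step of tyrosine breakdown, was nearly level at 804 CPM in liver and 656 CPM in iWAT (-0.29 ± 0.25).

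Of 33 cytochrome P450 and flavin monooxygenase genes of drug metabolism, 24 were 4-fold higher in liver and 1 in iWAT (median -6.33). As shares this was 72.7% and 3.03%, against 7.20% and 18.0% of all genes. Cyp3a11 stood at 4934 CPM in liver and 46.3 CPM in iWAT (-6.74 ± 1.01 log2 units) and Cyp2c29 at 1255 CPM in liver and 9.57 CPM in iWAT (-7.04 ± 1.02). Members that were less far apart included Cyp2e1, which oxidises ethanol and acetone, at 8358 CPM in liver and 1375 CPM in iWAT (-2.60 ± 0.29), Cyp2f2 at 728 CPM in liver and 111 CPM in iWAT (-2.72 ± 0.33), and Fmo1 at 292 CPM in liver and 220.1 CPM in iWAT (-0.41 ± 0.22). Por, the reductase that serves all microsomal P450s, was at 156 CPM in liver and 248 CPM in iWAT (0.67 ± 0.25), near the median of all genes. Several P450 and sulfotransferase genes have close paralogues that can share reads. Of the conjugating enzymes, 17 of 35 were 4-fold higher in liver (48.6%, against 7.20% of all genes), led by Sult and Ugt2 genes. Glutathione transferases reached from -6.03 ± 0.88 (Gsta2) to 3.89 ± 0.25 (Mgst3).

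The transcription factors matched this order. Of 22 hepatocyte factors in both tissues, 14 were 4-fold higher in liver (63.6%, against 7.20% of all genes). The median was -5.51, and Foxa1 was listed in liver only. Of the 14, 9 lay within 2-fold of the hepatocyte floor or under it, among them Hnf4a, Onecut1 and Nr1i3. Hnf4a, a nuclear receptor central to hepatocyte identity, stood at 648 CPM in liver and 5.88 CPM in iWAT (-6.79 ± 1.05 log2 units), Onecut1 at 41.1 CPM in liver and 0.281 CPM in iWAT (-7.19 ± 1.31) and Nr1i3 (the receptor CAR, which senses foreign compounds) at 468 CPM in liver and 3.28 CPM in iWAT (-7.16 ± 0.77). Of 19 adipocyte factors in both, 9 were 4-fold higher in iWAT (47.4%, against 18.0% of all genes), with a median of 1.83. Another 11 were listed in iWAT only, among them Ebf1 (141 CPM) and Hoxc8 (52.7 CPM). Pparg, the master regulator of adipocyte formation, stood at 19.9 CPM in liver and 253 CPM in iWAT (3.67 ± 0.24). Factors known from both cell types were less than 4-fold apart. Cebpa was at 193 CPM in liver and 462 CPM in iWAT (1.25 ± 0.24), Rxra at 300.2 CPM in liver and 199.6 CPM in iWAT (-0.59 ± 0.24), Nr1h3 (the sterol receptor LXR alpha) at 91.3 CPM in liver and 103 CPM in iWAT (0.17 ± 0.23) and Mlxipl (the glucose-responsive factor ChREBP) at 231 CPM in liver and 219 CPM in iWAT (-0.07 ± 0.26).

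**Figure D4:**
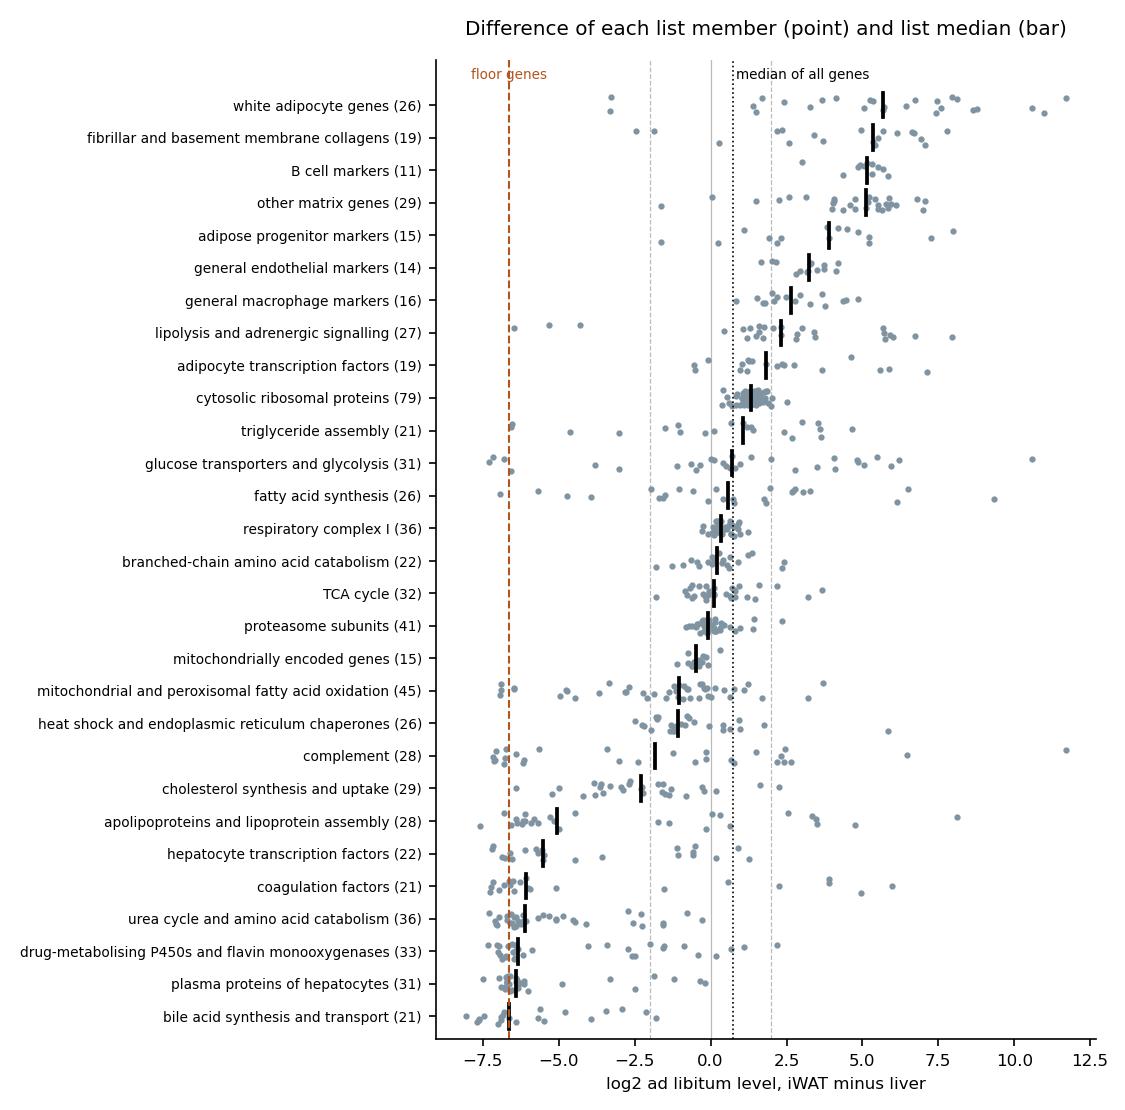
Difference between the AL levels of iWAT and liver, in log2 units, for each member (point) of 29 gene lists, with the list median as a bar and the number of genes listed in both tissues in parentheses. The dotted line is the median of all genes (0.74), the dashed line the median of the hepatocyte floor genes (-6.66) and the outer grey dashed lines mark 4-fold. The medians of the bile acid (-6.64), plasma protein (-6.41) and P450 lists (-6.33) lie near the floor line and those of the complement (-1.83) and cholesterol lists (-2.28) further right. The members of respiratory complex I lie close together, and the white adipocyte, matrix and B cell lists have medians beyond 4-fold on the iWAT side.

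White adipocyte genes took up 7.18% of the summed iWAT level and 0.759% of that of liver. Of the 26 in both tissues, 21 were 4-fold higher in iWAT (18.0% of all genes) and 2, Rbp4 and Agt (angiotensinogen; 417 CPM in liver and 42.7 CPM in iWAT, -3.29 ± 0.44 log2 units), in liver. Droplet proteins were prominent. Plin4 stood at 26.6 CPM in liver and 4600.2 CPM in iWAT (7.43 ± 0.31) and Cidec, which fuses droplets into 1 large store, at 9.40 CPM in liver and 1819 CPM in iWAT (7.60 ± 0.32). Plin2, the perilipin of many cell types, was at 424 CPM in liver and 601 CPM in iWAT (0.50 ± 0.27), and some droplet proteins were on the liver side, such as Hsd17b13 (365 CPM in liver and 4.61 CPM in iWAT, -6.31 ± 1.08) and Cideb (188 CPM in liver and 2.59 CPM in iWAT, -6.18 ± 0.89). Over the 19 droplet genes the median was 1.79, with 9 at least 4-fold higher in iWAT and 3 in liver. These are 47.4% and 15.8%, against 18.0% and 7.20% of all genes.

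Lipolysis was laid out by tissue as well. Of 27 genes of lipolysis and its adrenergic control in both tissues, 15 were 4-fold higher in iWAT and 3 in liver (median 2.31). The shares were 55.6% and 11.1%, against 18.0% and 7.20% of all genes. Another 9 were listed in iWAT only. The triglyceride lipase Pnpla2 stood at 36.3 CPM in liver and 1886 CPM in iWAT (5.70 ± 0.28 log2 units) and hormone-sensitive lipase, Lipe, at 10.7 CPM in liver and 1146 CPM in iWAT (6.74 ± 0.27). Among receptors, the beta-3 adrenoceptor Adrb3 was at 2.55 CPM in liver and 130.2 CPM in iWAT (5.68 ± 0.29), and the lactate receptor Hcar1 was listed in iWAT only at 65.1 CPM. The glucagon receptor Gcgr lay on the other side at 181 CPM in liver and 4.58 CPM in iWAT (-5.31 ± 0.53). Glycerol channels followed: Aqp7, the exit channel of adipocytes, was listed in iWAT only (182 CPM), and Aqp9, the entry channel of hepatocytes, was at 507 CPM in liver and 5.71 CPM in iWAT (-6.47 ± 0.72).

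Hormone genes lay on both sides. Of 27 genes listed in both tissues on the adipokine list, 5 were 4-fold higher in iWAT and 11 in liver (median -0.84) on a list that holds hormones known from liver as well. The iWAT share, 18.5%, is that of all genes (18.0%), while the liver share was 40.7% against 7.20%. Adipoq, Lep and Retn were listed in iWAT only. Angptl4, an inhibitor of lipoprotein lipase, was at 14.9 CPM in liver and 404 CPM in iWAT (4.76 ± 0.29 log2 units). Igf1 was at 379 CPM in liver and 212 CPM in iWAT (-0.84 ± 0.23), less than 1 log2 unit apart, and Rarres2 (chemerin) at 292 CPM in liver and 419 CPM in iWAT (0.52 ± 0.25). Of the thermogenic genes, Ucp1, which uncouples respiration in brown and beige adipocytes, was listed in iWAT only at 1.50 CPM, and Cidea at 20.7 CPM.

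Fatty acid synthesis gave a divided list. Of 26 genes, 8 were 4-fold higher in iWAT (30.8%, against 18.0% of all genes) and 4 in liver (15.4%, against 7.20%). The median was 0.58, which becomes -0.17 when measured from the median of all genes. The genes that lead from citrate to monounsaturated fat were higher in iWAT. Acly, which yields cytosolic acetyl-CoA, was at 246 CPM in liver and 950.4 CPM in iWAT (1.95 ± 0.38 log2 units), Acaca (acetyl-CoA carboxylase) at 96.5 CPM in liver and 620.1 CPM in iWAT (2.68 ± 0.31), Fasn (fatty acid synthase) at 458 CPM in liver and 3014 CPM in iWAT (2.72 ± 0.45) and Scd1 (stearoyl-CoA desaturase) at 2713 CPM in liver and 18559 CPM in iWAT (2.77 ± 0.42). Several elongases and desaturases of polyunsaturated fat were higher in liver, among them Elovl2 (409.8 CPM in liver and 3.35 CPM in iWAT, -6.94 ± 1.00), Fads2 (223 CPM in liver and 8.42 CPM in iWAT, -4.72 ± 0.29) and Elovl5 (403 CPM in liver and 104 CPM in iWAT, -1.96 ± 0.21). The related Fads3 (6.47 CPM in liver and 579.9 CPM in iWAT, 6.49 ± 0.28) and Scd2 (5.58 CPM in liver and 389 CPM in iWAT, 6.12 ± 0.30) were higher in iWAT.

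Triglyceride assembly had a median of 1.07, with 7 of 21 genes 4-fold higher in iWAT and 4 in liver. These are 33.3% and 19.0%, against 18.0% and 7.20% of all genes. Dgat2, which makes the final ester bond, was at 324 CPM in liver and 2081 CPM in iWAT (2.68 ± 0.30 log2 units), Agpat2 at 174 CPM in liver and 398 CPM in iWAT (1.19 ± 0.30) and Gpat3 at 5.13 CPM in liver and 128 CPM in iWAT (4.64 ± 0.25). Glycerol kinase, Gk, which lets liver reuse glycerol, was at 153 CPM in liver and 6.25 CPM in iWAT (-4.62 ± 0.34), and Gpam, the mitochondrial acyltransferase of the same first step as Gpat3, at 149 CPM in liver and 74.6 CPM in iWAT. The uptake genes Cd36 (105 CPM in liver and 3508 CPM in iWAT, 5.06 ± 0.30) and Slc27a1 (5.14 ± 0.26) were on the iWAT side and Slc27a2 (-6.56 ± 0.73) and Slc27a5 (-6.64 ± 0.95) on the liver side. Acsl1, which activates fatty acids to acyl-CoA in both tissues, was level at 1289 CPM in liver and 1436 CPM in iWAT (0.16 ± 0.27).

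Fatty acid oxidation was higher in liver, with a median of -1.04 over 45 genes. Of them, 16 were 4-fold higher in liver (35.6%, against 7.20% of all genes) and 2 in iWAT (4.44%, against 18.0%). Of peroxisomal genes, Ehhadh, the bifunctional enzyme, was at 1447 CPM in liver and 54.0 CPM in iWAT (-4.74 ± 0.30 log2 units) and Crot, a carnitine acyltransferase, at 621 CPM in liver and 48.9 CPM in iWAT (-3.67 ± 0.23). Acadl (0.01 ± 0.21), Hadhb (-0.29 ± 0.23) and Acadm (-0.78 ± 0.22), which work in mitochondria, were within 1 log2 unit. Cpt1a, the gate of mitochondrial entry, was at 377 CPM in liver and 87.5 CPM in iWAT (-2.11 ± 0.24). The pair on the iWAT side was Abcd2 (a peroxisomal acyl-CoA transporter; 36.4 CPM in liver and 478 CPM in iWAT, 3.72 ± 0.27) and Pdk4 (which blocks pyruvate oxidation; 8.34 CPM in liver and 77.8 CPM in iWAT, 3.22 ± 0.34). Oxct1, the transferase needed to burn ketone bodies, was on the iWAT side at 3.24 CPM in liver and 204 CPM in iWAT (5.98 ± 0.25).

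Cholesterol synthesis was a further liver list, with 17 of 29 genes 4-fold higher in liver, 1 in iWAT and a median of -2.28. In shares, 58.6% and 3.45% stood against 7.20% and 18.0% of all genes. Unlike the plasma proteins, only 1 of the 17 lay near the hepatocyte floor. Idi1, an isomerase of the isoprenoid steps, was at 613 CPM in liver and 44.2 CPM in iWAT (-3.79 ± 0.23 log2 units). Their regulator Srebf2 was nearly level, at 53.0 CPM in liver and 44.0 CPM in iWAT (-0.27 ± 0.22). The acyltransferases that store cholesterol as ester went in opposite directions, Soat2 at 27.0 CPM in liver and 0.721 CPM in iWAT (-5.23 ± 0.55) and Soat1 at 3.57 CPM in liver and 16.8 CPM in iWAT (2.24 ± 0.33).

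The glucose genes as a list lay near the median of all genes, while their isoenzymes lay on opposite sides. Over 31 transporters and glycolytic genes, 11 were 4-fold higher in iWAT (35.5%, against 18.0% of all genes) and 6 in liver (19.4%, against 7.20%). The median was 0.70, or -0.05 from the median of all genes. Ldha was the same in both tissues, at 819.8 CPM in liver and 820.0 CPM in iWAT (0.00 ± 0.26 log2 units), and Tpi1 (-0.47 ± 0.25), Pgam1 (0.11 ± 0.21) and Gapdh (-0.36 ± 0.28) were close. In the other groups the tissue difference of Ldha was 1.88 (CR) and 2.08 (TR). The authors' deposited tables give Ldha in iWAT a log2 fold change of 1.16 for CR against AL (FDR 0.0436) and 1.48 for TR against AL (FDR 7.58e-06). Of the gluconeogenic genes, Fbp1 (684 CPM in liver and 7.19 CPM in iWAT, -6.57 ± 1.06) and G6pc were on the liver side, Pcx (pyruvate carboxylase) was at 451 CPM in liver and 643 CPM in iWAT (0.51 ± 0.30), and Pck1, which in fat serves glycerol synthesis, was higher in iWAT at 318 CPM in liver and 1694 CPM in iWAT (2.41 ± 0.31).

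Isoenzymes and paralogues were compared as 34 pairs, of which 29 had both members in both tissues. In 16 pairs the members were at least 4-fold apart in opposite directions, and in 21 of 29 the member with the higher level per kilobase was not the same in both tissues. For glucose entry, Slc2a2 made 99.9% of the summed level per kilobase of Slc2a2 and Slc2a4 in liver and 0.546% in iWAT. Pklr made 90.2% and 0.200% of the pyruvate kinase pair with Pkm, in the same order. Glycogen synthase had the same pattern, with Gys2 at 98.3% in liver and 7.53% in iWAT, the rest being Gys1. At each of these steps a different gene led in each tissue.

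Lipid and amino acid pairs followed. Fabp1 made 99.9% of Fabp1 and Fabp4 in liver and 0.437% in iWAT, Lipc (hepatic lipase) 93.8% and 0.0492% of the pair with Lpl, Cideb 95.9% and 0.175% of the pair with Cidec, and Lpin2 84.0% and 4.40% of the pair with Lpin1. Ppara made 68.6% of Ppara and Pparg in liver and 0.575% in iWAT. For the synthesis of S-adenosylmethionine, Mat1a made 98.7% and 10.7% of the pair with Mat2a. In 8 pairs the same member led in both tissues. Dgat2 led Dgat1 with 93.2% in liver and 89.8% in iWAT, Ldha led Ldhb with 99.7% and 91.0%, and Adipor2 led Adipor1 with 83.4% and 83.6%. Irs2 was an inverse case, with 35.3% of Irs2 and Irs1 in liver and 72.7% in iWAT, and here Irs1 was level (0.08 ± 0.31 log2 units) and Irs2 higher in iWAT (2.35 ± 0.29). The liver members near the floor in iWAT, such as Slc2a2 and Fabp1, share that floor with the hepatocyte genes, and the part of liver RNA in their iWAT share was not tested.

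**Figure D5:**
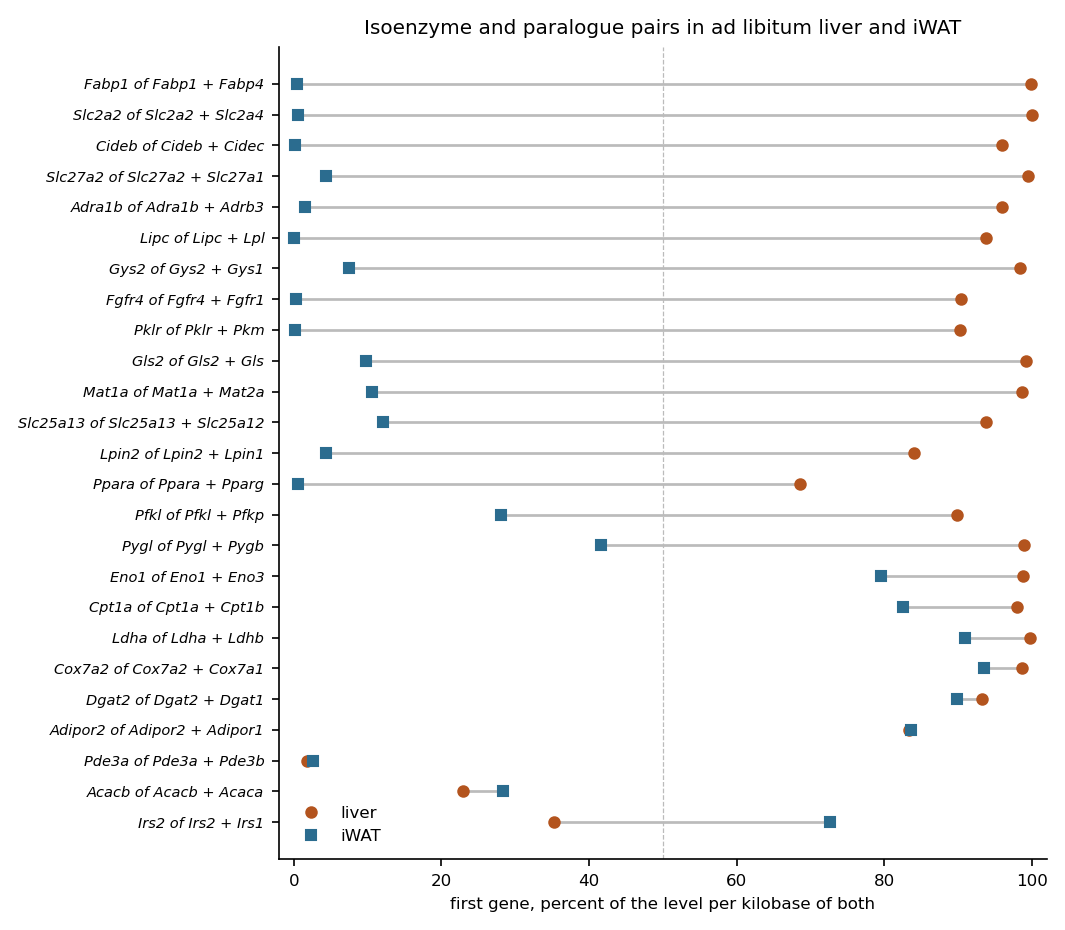
Share of the first gene in the summed level per kilobase of each of 25 pairs, in percent, in AL liver (circles) and AL iWAT (squares). The dashed line marks 50%. In 17 pairs the circle and the square lie on opposite sides of it.

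Mitochondrial metabolism was close to level. The 32 genes of the TCA cycle and pyruvate oxidation had a median of 0.11 log2 units, 36 of respiratory complex I 0.33, 41 of complexes II to V 0.24 and 22 of branched-chain amino acid breakdown 0.21. Measured from the median of all genes these become -0.63, -0.41, -0.50 and -0.53, so which tissue is higher depends on the scaling. The 15 genes encoded by mitochondrial DNA had medians below 0 on both scales, at -0.49 and -1.23, with mt-Nd3 (0.32 ± 0.26) as the member on the iWAT side of the first, and they held 6.58% of the summed liver level and 4.94% of that of iWAT. No complex I gene was 4-fold apart, the range being -0.28 ± 0.21 (Ndufs1) to 1.24 ± 0.22 (Ndufv3). Single control points did differ. Idh3a (a subunit of NAD-linked isocitrate dehydrogenase) was at 44.4 CPM in liver and 202 CPM in iWAT (2.19 ± 0.21), Pdp1 (which activates pyruvate dehydrogenase) at 1.44 CPM in liver and 18.6 CPM in iWAT (3.68 ± 0.33) and Bckdk (which turns off branched-chain breakdown) at 12.3 CPM in liver and 62.6 CPM in iWAT (2.34 ± 0.21). Bcat2, the mitochondrial aminotransferase that starts that pathway, was at 28.7 CPM in liver and 153 CPM in iWAT (2.41 ± 0.25).

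The machinery of protein synthesis and quality control differed by component. Cytosolic ribosomal protein genes lay together on the iWAT side, with a median of 1.32 over 79 genes, the lowest being Rpl7a (0.36 ± 0.23) and the highest Rplp2 (24.2 CPM in liver and 137 CPM in iWAT), and with 74 of 79 above the median of all genes. They held 1.29% of the summed liver level and 3.26% of that of iWAT. Proteasome genes had a median of -0.10 over 41 genes, which is -0.85 from the median of all genes, with 36 below that median. Apart stood the immunoproteasome subunits Psmb8 (2.36 ± 0.29), Psmb10 (1.44 ± 0.30) and Psmb9 (1.40 ± 0.27), which process antigen and were the 3 highest of the list. Chaperones of the endoplasmic reticulum, through which secreted proteins pass, were higher in liver: Hsp90b1 was at 1945 CPM in liver and 421 CPM in iWAT (-2.21 ± 0.27), Hspa5 (BiP) at 1936 CPM in liver and 584 CPM in iWAT (-1.73 ± 0.28) and P4hb at 1528 CPM in liver and 448 CPM in iWAT (-1.77 ± 0.24). Over 26 chaperone genes the median was -1.07, and the small heat shock protein Cryab was the exception at 2.22 CPM in liver and 126 CPM in iWAT (5.83 ± 0.29).

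Of 35 hormone signalling genes in both tissues, 22 were less than 4-fold apart, which is 62.9% against 74.8% of all genes. Another 9 were 4-fold higher in iWAT (25.7%, against 18.0%) and 4 in liver (11.4%, against 7.20%). The insulin receptor Insr was at 107 CPM in liver and 127 CPM in iWAT (0.25 ± 0.21 log2 units), the growth hormone receptor Ghr at 458 CPM in liver and 905 CPM in iWAT (0.98 ± 0.26), and Akt2, a kinase of insulin action, at 78.6 CPM in liver and 567 CPM in iWAT (2.85 ± 0.23). Fibroblast growth factor receptors were split, Fgfr4 at 35.9 CPM in liver and 0.639 CPM in iWAT (-5.81 ± 0.69) and Fgfr1 at 5.19 CPM in liver and 265 CPM in iWAT (5.67 ± 0.26), while their co-receptor Klb was in both at 27.7 CPM in liver and 69.0 CPM in iWAT (1.32 ± 0.23). Clock genes had a median of 0.09 over 18 genes (-0.65 from the median of all genes). Arntl (BMAL1) was at 10.2 CPM in liver and 36.8 CPM in iWAT (1.85 ± 0.31) and Per2 at 46.3 CPM in liver and 21.9 CPM in iWAT (-1.08 ± 0.25).

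Genes of the extracellular matrix formed the second large iWAT group. Of 19 collagen genes in both tissues, 16 were 4-fold higher in iWAT and 1, Col27a1, in liver (median 5.34). The shares were 84.2% and 5.26%, against 18.0% and 7.20% of all genes. Col3a1, a fibrillar collagen, was at 12.1 CPM in liver and 1217 CPM in iWAT (6.65 ± 0.29 log2 units), Col4a1, of basement membranes, at 21.8 CPM in liver and 1124 CPM in iWAT (5.69 ± 0.28) and Col1a1 at 1.15 CPM in liver and 252 CPM in iWAT (7.78 ± 0.33). Col18a1, the precursor of endostatin, was higher in liver at 394 CPM in liver and 108 CPM in iWAT (-1.87 ± 0.31), and Col14a1 was near level (0.28 ± 0.33). Of 29 other matrix genes, 26 were 4-fold higher in iWAT (89.7%, against 18.0% of all genes), with a median of 5.12. Sparc, a collagen-binding protein, was at 38.4 CPM in liver and 4315 CPM in iWAT (6.81 ± 0.32) and Dcn (decorin) at 164 CPM in liver and 1464 CPM in iWAT (3.16 ± 0.30). Fn1, fibronectin, which hepatocytes release into plasma, was the member on the liver side at 1361 CPM in liver and 438 CPM in iWAT (-1.64 ± 0.33).

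Markers of other cell types separated the tissues too. All 11 markers of continuous capillary endothelium were 4-fold higher in iWAT (median 3.77), against 18.0% of all genes. Cd300lg was at 14.5 CPM in liver and 234 CPM in iWAT (4.02 ± 0.24 log2 units). Fabp4, Fabp5 and Cav1 of that list are also adipocyte genes. General endothelial genes were higher in iWAT as well, 13 of 14 by 4-fold (92.9%, against 18.0% of all genes). Pecam1 was at 17.4 CPM in liver and 305 CPM in iWAT (4.13 ± 0.23). Of 15 markers of the fenestrated sinusoids of liver, 5 were 4-fold higher in liver and 1, Lyve1, in iWAT. The shares were 33.3% and 6.67%, against 7.20% and 18.0% of all genes. Clec4g was at 39.0 CPM in liver and 1.34 CPM in iWAT (-4.86 ± 0.61) and Stab2 at 40.5 CPM in liver and 5.33 CPM in iWAT (-2.93 ± 0.44). Progenitor markers had a median of 3.89, with Pdgfra at 6.37 CPM in liver and 91.6 CPM in iWAT (3.84 ± 0.24) and Pi16 listed in iWAT only (152 CPM). Of 12 stellate cell markers in both tissues, 5 were 4-fold higher in liver (41.7%, against 7.20% of all genes). Another 3 were 4-fold higher in iWAT (25.0%, against 18.0%), and 3 were listed in liver only. The list median was -0.17, but 0.62 from the CR tables alone. Lrat, which stores retinol, was listed in liver only (27.4 CPM), while Des and Cygb were higher in iWAT. Des is also counted among the smooth muscle genes below, and the part of muscle in its level was not tested.

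Macrophage genes were split by residence. General macrophage markers had a median of 2.63, with 12 of 16 at least 4-fold higher in iWAT, such as Lyz2 at 56.0 CPM in liver and 761 CPM in iWAT (3.76 ± 0.29 log2 units). Of 9 markers of Kupffer cells, the resident macrophages of liver, 5 were 4-fold higher in liver, led by Clec4f at 61.7 CPM in liver and 1.00 CPM in iWAT (-5.94 ± 0.97), and 2, Cd163 and Folr2, in iWAT. Lymphocyte genes were higher in iWAT. All 11 B cell markers in both tissues were 4-fold higher in iWAT (median 5.15), against 18.0% of all genes, and 7 more were listed there only. Of 18 T cell markers, 13 were listed in iWAT only. Ighm was at 8.07 CPM in liver and 366 CPM in iWAT (5.50 ± 0.48) and Cd3g at 0.568 CPM in liver and 22.5 CPM in iWAT (5.31 ± 0.77). Their SEs were large: the median SE of the log2 iWAT level was 0.732 over the B cell and 0.701 over the T cell list, against 0.245 for all iWAT genes. The part of lymph node tissue in these values was not tested.

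Skeletal muscle genes behaved in a similar way. Of 17 muscle markers, 16 were listed in iWAT only, among them Myh4 at 833 CPM, Atp2a1 (the calcium pump of fast fibres) at 624, Acta1 at 466 and Ckm at 246 CPM. Their summed level was 3884 CPM in AL iWAT, 8896 CPM in CR iWAT and 579 CPM in TR iWAT, and the SE of log2 Myh4 in AL iWAT was 1.09. The median SE of a muscle gene in AL iWAT was 0.896, while that of the white adipocyte list was 0.247 and its sums were 64511, 64298 and 69697 CPM in the same order. Glycolytic genes with a muscle form, such as Eno3 (4.81 ± 0.59 log2 units) and Pfkm (2.76 ± 0.48), had SEs above the 0.252 of a typical gene, and the part of muscle in their levels was not tested. Smooth muscle (median 4.62) and Schwann cell genes (median 4.99) were higher in iWAT, with Acta2 at 2.05 CPM in liver and 477 CPM in iWAT (7.86 ± 0.36).

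Some genes shared by both tissues used different transcripts. Among 4294 genes of at least 20 CPM in both, 3304 had at least 2 transcripts in the tables, and the leading transcript differed between liver and iWAT in 291 (8.81%). The share of the transcript that led in iWAT differed by more than 50 percentage points in 21 genes, that of the transcript that led in liver in 28, and either in 29. In 1054 genes the same transcript held over 90% in both. By the transcript that led in iWAT, the 6 largest differences were in Bcat2, Nedd4l, Tpm1, Rnase4, Pfkfb1 and Lima1. For Bcat2, transcript Bcat2-203 held 68.1% of the gene's summed transcript level in liver and 0.962% in iWAT, where Bcat2-201, not listed in liver, held 90.3%; their start sites on chromosome 7 lie 843 bases apart (45570996 and 45570153, GRCm38). For Pfkfb1, which sets the level of the glycolytic activator fructose 2,6-bisphosphate, Pfkfb1-202 held 87.0% in liver and Pfkfb1-201 held 84.2% in iWAT, with starts 4557 bases apart. For Rnase4, a secreted ribonuclease, Rnase4-202 held 76.1% in liver and Rnase4-201 98.5% in iWAT, with starts 5282 bases apart. Nedd4l, a ubiquitin ligase, was led by Nedd4l-201 in liver (90.6%) and Nedd4l-202 in iWAT (99.3%). Lima1 was led by Lima1-201 (93.2%) and Lima1-202 (76.6%), and Tpm1, a tropomyosin, by Tpm1-212 (42.6%) and Tpm1-205 (76.9%), in the same order. Tpm1-205 stood at 306 CPM in AL iWAT with an SE of 0.925 log2 units, near the median of 0.896 of the muscle genes. The part of muscle in its level was not tested. By the transcript that led in liver, the largest difference was in Tomm40l, chosen after its values were seen: Tomm40l-201 held 96.6% in liver and 3.87% in iWAT, where Tomm40l-203, not listed in liver, held 67.1%. Transcripts of a gene share reads, which were divided between them by estimation. The shares are given without an error.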

How the data were processed

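Bulk RNA-seq of liver and iWAT was used as gene and transcript tables of the authors' edgeR comparisons of CR and TR with AL, 4 of each kind. Per the labels' protocols, Trizol was used for RNA and an Illumina TruSeq kit for libraries. Reads were handled with bcl2fastq 2.20, STAR 2.5.3a and RSEM on GRCm38.p5, per the submitters' processing notes. The edgeR version, filter and normalization were not given in the sources used here. By column, per the file headers, each deposited table holds a log2 fold change, a log2 mean CPM, a likelihood-ratio statistic (used here as a score) and a p-value with its FDR. No value per library was analysed here, so depth is unknown.

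The AL level was 2 × CPM / (1 + fold change), which takes the deposited log2 CPM as the mean of both groups; the 2 estimates of a tissue were averaged where both tables list the gene. The approximate SE of a group divides the absolute log2 fold change by the root of the statistic and by the root of 2. All 16021 genes and 37783 transcripts matched GENCODE M21 (GRCm38), which gave symbols, lengths and coordinates. RefSeq promoters (GRCm38.p6; 32851 promoters of 27025 genes) were searched for 19 motifs. The scripts (Python 3.11.15, numpy 2.4.6, pandas 2.3.3, matplotlib 3.10.9) were tested on simulated data.

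The 60 lists, the 34 pairs and the members were chosen with earlier results of these data known. Genes were named by rule: the 15 largest differences each way with at least 20 CPM in the higher tissue, the 10 highest found in 1 tissue, 10 high in both with a difference under 0.5 log2 units, up to 4 leading members of a list and up to 2 against its median, the pairs, the floor genes with a few fixed genes, and 6 genes by the share of the transcript leading in iWAT. Members named besides these were picked with their values in view. The alternatives tried are other table choices, formulas, scalings, fold and CPM limits. Some genes are not reported here.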

Additional observations from a re-analysis of the deposited data

How the results depend on the processing

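The scale between the tissues is the main limit. Centring on the median of all genes shifts every difference by -0.74 log2 units and sets that median to 0. It gives 1413 genes at least 4-fold higher in iWAT, against 2217. Centring on reference genes shifts by -0.60, leaving the 50 highest genes out of the totals by -0.19, and rescaling each tissue to the same total, an alternative chosen after seeing the data, by 0.11. Of the 250 named genes that were 4-fold apart, 227 still were when centred on all genes; a shift of that size cannot turn their direction. List medians that changed sign under that centring are those of branched-chain breakdown, fatty acid synthesis, glycolysis, the TCA cycle, clock genes, complex I, complexes II to V, mitochondrial ribosomal proteins (0.35 and -0.39), the reference genes, the Y-linked genes and the few muscle genes in both tissues. The stellate list changed sign from the CR tables alone, and the proteasome list (-0.10) with that rescaling (0.01). With other limits, 4979 genes were at least 2-fold higher in iWAT and 1405 in liver, and 548 and 494 at least 16-fold. At 10 CPM or more, 49 genes were listed in liver only and 484 in iWAT only. The liver 4-fold count ranged from 719 (CR tables alone) to 1222 (centred), and the leading-transcript count from 289 to 291. Taking the floor off the iWAT level left 135 genes with no iWAT level. The geometric formula moved the floor to 1.70%. No paired analysis was possible because the tables give no values per library, and for the same reason leaving out a replicate was not run. Depth and counting error are unknown.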

Other observations

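Metal and retinoid genes were set apart by role. Of 24 genes listed in both tissues, 14 were 4-fold higher in liver and 2 in iWAT (median -2.79 log2 units). As shares this was 58.3% and 8.33%, against 7.20% and 18.0% of all genes. Hamp, which encodes the iron hormone hepcidin, stood at 643 CPM in liver and 7.39 CPM in iWAT (-6.44 ± 0.93), and Atp7b, the copper pump of hepatocytes, at 37.7 CPM in liver and 0.526 CPM in iWAT (-6.17 ± 0.84). The copper-dependent ferroxidases lay on opposite sides, Cp at 1017 CPM in liver and 179 CPM in iWAT (-2.50 ± 0.25) and Heph at 0.898 CPM in liver and 101 CPM in iWAT (6.81 ± 0.34). The ferritin chains were close, Ftl1 at -0.70 ± 0.29 and Fth1 at 0.68 ± 0.25.

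Immediate early genes, which respond within minutes to stress and handling, were higher in iWAT: 6 of 11 by at least 4-fold (18.0% of all genes), with a median of 2.06. Klf4 stood at 0.783 CPM in liver and 45.5 CPM in iWAT (5.86 ± 0.34), Nr4a1 at 0.690 CPM in liver and 8.71 CPM in iWAT (3.66 ± 0.39) and Egr1 at 9.28 CPM in liver and 11.9 CPM in iWAT (0.36 ± 0.43), and Fos was listed in iWAT only at 3.43 CPM. The globin genes of red cells were higher in iWAT as well, Hba-a1 at 26.7 CPM in liver and 196 CPM in iWAT (2.87 ± 0.37) and Hbb-bs at 142 CPM in liver and 897 CPM in iWAT (2.66 ± 0.34). Of the mast cell genes, Cpa3 (18.0 CPM), Cma1 (23.5 CPM) and Mcpt4 (33.6 CPM) were listed in iWAT only.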
